A study of Mus musculus with 18 samples.

Results

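Midkine (Mdk), bone morphogenetic protein 6 (Bmp6) and follistatin (Fst) are secreted growth regulators that were followed in the lacrimal, meibomian and submandibular glands of orchiectomised male BALB/c mice given testosterone or placebo. They were chosen because their probes read much higher with testosterone, so the testosterone values below are a description and carry no test. Each gene had 1 probe among the 10500 of the value table, which name 8841 genes. The 6 groups were lacrimal testosterone, lacrimal placebo, meibomian testosterone, meibomian placebo, submandibular testosterone and submandibular placebo. All mice, those of the placebo groups included, had lost their testes, and a pellet of hormone or placebo was in place for 21 days. Each group was measured on 3 arrays (A, B and C), 1 for each pool of 10 glands of 5 mice, and another label speaks of 4 animals for each sex in an experiment. No age is given.

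Midkine is a heparin-binding cytokine that acts with pleiotrophin (Ptn) through receptors such as the phosphatase Ptprz1, syndecans and integrins, and it is known from epithelial growth and from inflammation. Bmp6 is a ligand of the TGF-beta superfamily that signals through type I and type II serine-threonine kinase receptors to Smad proteins, which switch on Id genes. Follistatin is a secreted protein that binds activin, and with lower affinity some bone morphogenetic proteins, and so keeps them from their receptors. Lacrimal glands secrete the aqueous layer of tears, meibomian glands are the sebaceous glands of the eyelid, and submandibular glands secrete saliva and differ between male and female rodents.

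Intensities are on the authors' linear scale, where the median of an array lay between 0.929 and 0.952, and every pool below is given by its intensity or by its percentile among all probes of its own array. The value table used here has no call of signal above background. At the dim end the glands differed, with a 10th percentile of 0.0514 to 0.0741 on meibomian arrays, against 0.211 to 0.316 on lacrimal and 0.211 to 0.243 on submandibular arrays. The bright end also differed, with an array maximum of 134.6 to 219.1 (meibomian), 597.5 to 1042 (lacrimal) and 636.3 to 742.6 (submandibular). The leading markers followed the labels, with exceptions. The sebaceous elongase gene Elovl3 averaged 102 in meibomian placebo pools, against 0.432 in lacrimal and 0.631 in submandibular ones. Egf, the growth factor of submandibular ducts, averaged 35.2 in submandibular placebo pools and 3.49 in lacrimal ones, and the tear protein gene Ltf averaged 79.4 in lacrimal and 0.511 in submandibular placebo pools. Dmbt1 (19.9 and 0.995) and Pigr (62.2 and 15.7) were also higher in lacrimal than in submandibular placebo pools. Other lacrimal markers were bright in both, with Car6 at 547 and 509, Aqp5 at 27.5 and 23.0 and Scgb1b2 at 1000 and 451. The sebocyte receptor gene Mc5r went the other way, at 0.488 in meibomian and 3.40 in lacrimal placebo pools. Skeletal muscle markers summed to 126 to 156 in meibomian placebo pools, 1.72 to 2.28 in lacrimal and 2.43 to 6.45 in submandibular ones. Keratinocyte markers summed to 186 to 226, 2.25 to 2.7 and 5.55 to 6.43 in that order of glands. Among the keratinocyte markers Lor was the exception, with placebo means of 0.894, 1.44 and 1.56. The submandibular kallikrein gene Klk1b5 reached 10.7 in 1 lacrimal testosterone pool and 14.7 in 1 lacrimal placebo pool (group medians 0.648 and 0.579), and the secretoglobin gene Scgb1b2 reached 98.3 in 1 meibomian placebo pool (median 3.82).

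Midkine was high with testosterone in 2 glands. In the lacrimal gland the Mdk probe read 120, 90.8 and 97.6 in testosterone pools A, B and C, against placebo readings of 4.33, 5.19 and 1.24. Each testosterone pool lay between the 98.2 and 98.4 percentiles of its array, and each placebo pool between 55.6 and 80.1. The mean was 103 ± 15.1 with testosterone and 3.59 ± 2.08 with placebo (SD, n = 3 each), a ratio of 28.6, and the fitted change was 4.98 ± 0.37 on the log2 scale (SE). Placebo pool C was the lowest of the 18 arrays for Mdk, and without it the change was 4.38.

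Submandibular Mdk read 107, 89.3 and 108 with testosterone, against 14.0, 6.80 and 6.31 with placebo. The groups lay apart, at means of 102 ± 10.7 and 9.03 ± 4.29 (SD, n = 3 each), with a ratio of 11.3 and a log2 change of 3.56 ± 0.37. Placebo pool A was higher than the other placebo pools, and it still lay below the lowest testosterone pool. In the meibomian gland Mdk read 15.4, 13.4 and 15 with testosterone and 6.86, 9.33 and 8.65 with placebo, again without overlap. The ratio there was 1.76 and the log2 change 0.81 ± 0.37. Among all 7463 tested probes the share whose 3 testosterone pools all lay above their 3 placebo pools was 18.2% (lacrimal), 24.1% (meibomian) and 16.5% (submandibular). In that order of glands, the Mdk change ranked 11th, 37th and 10th from the top, a place that follows from how the gene was chosen. RefSeq also lists a processed copy of the gene, Mdk-ps1, and whether the probe reads its RNA was not tested.

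**Figure D1:**
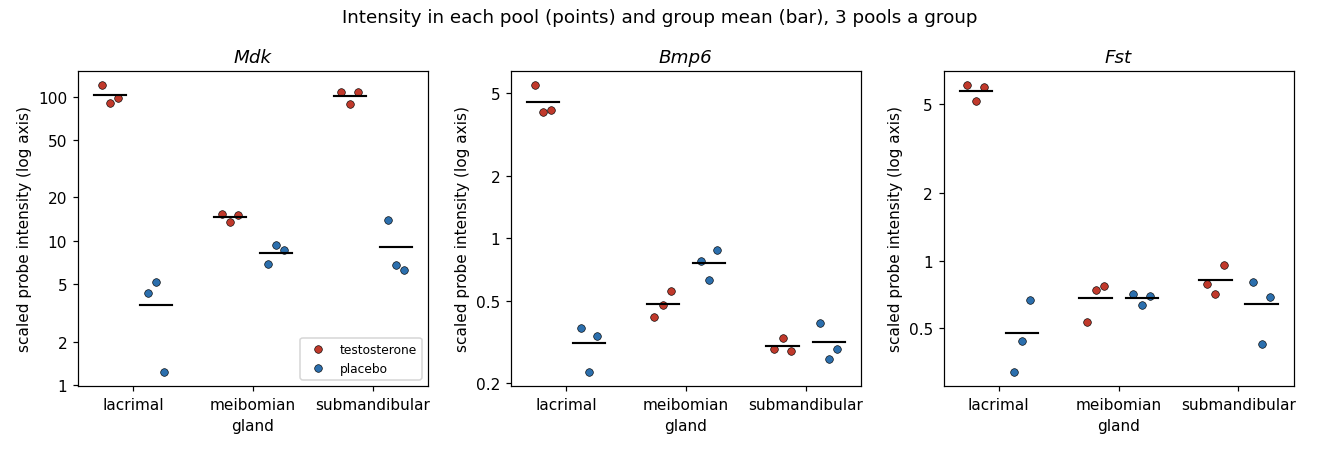
Scaled probe intensity (log axis) of Mdk, Bmp6 and Fst in each pool (points) of testosterone and placebo groups of the 3 glands, with the group mean as a bar. Mdk is high with testosterone in the lacrimal and submandibular glands (means 103 and 102), while Bmp6 and Fst are high only in the lacrimal testosterone pools (4.05 to 5.46 and 5.17 to 6.06) among the 6 groups.

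Bmp6 was high in 1 of the 6 groups. Lacrimal pools A, B and C read 5.46, 4.05 and 4.14 with testosterone, against 0.369, 0.228 and 0.338 with placebo. The placebo readings lay between the 3.33 and 15.6 percentiles of their arrays, at the dim end, and the testosterone readings between 75.6 and 79.7. The ratio of means was 14.6, from 4.55 ± 0.789 with testosterone and 0.312 ± 0.0744 with placebo (SD, n = 3 each), and the log2 change was 3.28 ± 0.16. Because the placebo readings were so dim, the size of this change moved with the offset added before taking logs, to 3.7 with an offset 4 times smaller and to 2.37 with one 4 times larger.

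The same probe behaved otherwise in the other glands. Submandibular Bmp6 read 0.294, 0.330 and 0.286 with testosterone and 0.391, 0.263 and 0.294 with placebo, and the groups overlapped (log2 change -0.03 ± 0.16). In the meibomian gland it read 0.418, 0.479 and 0.556 with testosterone, against 0.779, 0.626 and 0.879 with placebo. All 3 meibomian testosterone pools were below all 3 placebo pools, which was the case for 11.8% of the tested probes in this gland. The ratio was 0.637 and the log2 change -0.50 ± 0.16, and these readings lay between the 36.2 and 49.1 percentiles of their arrays.

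Bmp6 was the member whose upstream sequence was in the RefSeq promoter table of GRCm38.p6, which held 1 of the 3 genes. It is shown with the upstream sequences of Acvr2a and Chrd, genes of the same pathway that were likewise higher in lacrimal testosterone pools (below) and that were picked for this after their values were seen. Each line gives 250 bases up to the base before the annotated start, 5′ to 3′, and capitals mark GGGCGG (the GC box) or GGCGCC (a core of BMP response elements) on either strand.
Bmp6, chr13:38345466-38345715, + strand: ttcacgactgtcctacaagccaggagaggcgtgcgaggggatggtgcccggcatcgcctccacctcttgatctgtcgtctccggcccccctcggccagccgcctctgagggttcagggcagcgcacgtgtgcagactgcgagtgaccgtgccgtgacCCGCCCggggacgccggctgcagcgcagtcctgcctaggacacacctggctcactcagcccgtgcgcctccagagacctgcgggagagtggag
Acvr2a, chr2:48813859-48814108, + strand: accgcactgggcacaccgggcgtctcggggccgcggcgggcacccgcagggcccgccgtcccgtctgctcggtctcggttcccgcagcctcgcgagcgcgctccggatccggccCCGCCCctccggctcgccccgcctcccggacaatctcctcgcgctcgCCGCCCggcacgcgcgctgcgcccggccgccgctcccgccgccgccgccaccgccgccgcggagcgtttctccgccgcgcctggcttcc
Chrd, chr16:20732877-20733126, + strand: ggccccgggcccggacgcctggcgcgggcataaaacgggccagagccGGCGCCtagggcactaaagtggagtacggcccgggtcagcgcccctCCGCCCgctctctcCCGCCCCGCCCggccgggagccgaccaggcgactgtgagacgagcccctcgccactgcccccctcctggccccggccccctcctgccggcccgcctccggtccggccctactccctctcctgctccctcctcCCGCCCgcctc
GGGCGG was matched 1 time in Bmp6, 2 times in Acvr2a and 4 times in Chrd, where 2 matches overlap by a base, and 32.7% of all 32851 windows of this length hold at least 1. GGCGCC occurred 1 time in Chrd and in 9.59% of all windows. The hexamer AGAACA, a core of androgen receptor sites, was searched on both strands too and occurred in 0 of the 3 windows, against 16.1% of all windows. Such matches describe the letters of these windows and show no binding.

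Follistatin, like Bmp6, was high in lacrimal testosterone pools. In the lacrimal gland Fst read 6.06, 5.17 and 5.93 in testosterone pools A, B and C, against 0.320, 0.437 and 0.669 in placebo pools. The testosterone pools reached percentiles 79.4 to 81.0 of their arrays, and the placebo pools 10.5 to 41.4. Means were 5.72 ± 0.479 with testosterone and 0.475 ± 0.178 with placebo (SD, n = 3 each), a ratio of 12 and a log2 change of 3.21 ± 0.20. With the smaller and the larger offset this change was 3.53 and 2.46.

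Outside the lacrimal gland the Fst groups overlapped. Meibomian pools read 0.531, 0.738 and 0.774 with testosterone and 0.713, 0.637 and 0.695 with placebo (log2 change -0.01 ± 0.20). Submandibular pools read 0.784, 0.710 and 0.953 with testosterone and 0.803, 0.423 and 0.686 with placebo (0.31 ± 0.20). These readings lay between the 31.0 and 50.1 percentiles of their arrays.

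**Figure D2:**
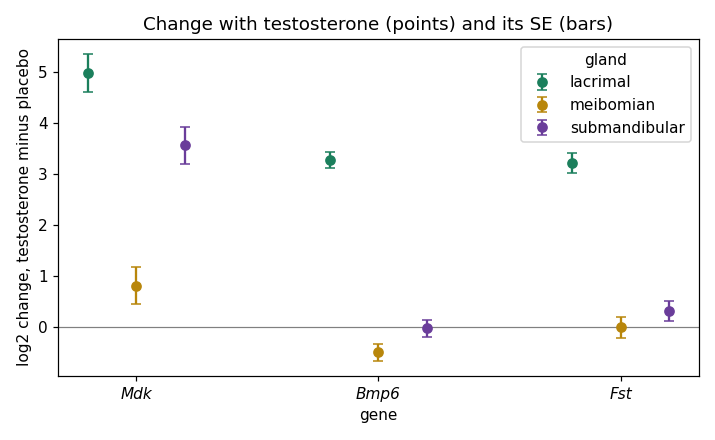
Fitted log2 change, testosterone minus placebo, of Mdk, Bmp6 and Fst in each gland (points) with its SE (bars). The lacrimal changes are 4.98, 3.28 and 3.21, and Mdk alone of the 3 genes has a large submandibular change (3.56, against -0.03 for Bmp6 and 0.31 for Fst).

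Set side by side, the lacrimal change exceeded the submandibular one by 1.42 ± 0.53 for Mdk, 3.31 ± 0.23 for Bmp6 and 2.90 ± 0.29 for Fst on the log2 scale (SE, no test because the genes were chosen on these changes). Against the meibomian gland the lacrimal excess was 4.16 ± 0.53 for Mdk, 3.78 ± 0.23 for Bmp6 and 3.23 ± 0.29 for Fst. Ordered by mean level, the Mdk groups ran from lacrimal and submandibular testosterone, whose ranges overlap, to meibomian testosterone (14.6 ± 1.09), submandibular placebo, meibomian placebo (8.28 ± 1.28) and lacrimal placebo. Meibomian testosterone and submandibular placebo overlap in that order, as do the submandibular and meibomian placebo groups. For Bmp6 the order was lacrimal testosterone, meibomian placebo (0.761 ± 0.127), meibomian testosterone (0.485 ± 0.0692) and then submandibular placebo (0.316 ± 0.0671), lacrimal placebo and submandibular testosterone (0.303 ± 0.0235), and the last 3 overlap. For Fst lacrimal testosterone stood apart and each of the other 5 groups overlapped its neighbour.

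Placebo levels of the genes in the 3 glands were part of the changes that chose them, so they are given with no test. Mdk was lower in lacrimal than in meibomian placebo pools (means 3.59 and 8.28, fitted log2 difference -1.37 ± 0.37, SE) and than in submandibular placebo pools (3.59 and 9.03, -1.41 ± 0.37). Without lacrimal placebo pool C these differences were -0.77 and -0.81. Between submandibular and meibomian placebo pools Mdk differed by 0.04 ± 0.37. Bmp6 read lower in the lacrimal than in the meibomian placebo group by a fitted difference of -0.95 ± 0.16, and lower in the submandibular than in the meibomian one by -0.93 ± 0.16. Lacrimal placebo Bmp6 lay near the 10th percentile of its arrays, which was 0.307 to 0.316, against 0.0514 to 0.0559 on meibomian placebo arrays. The Fst differences were -0.43, -0.33 and -0.11 (each ± 0.20) for lacrimal minus meibomian, lacrimal minus submandibular and submandibular minus meibomian. Without lacrimal placebo pool C the lacrimal minus submandibular Fst difference was -0.53, as it was without submandibular placebo pool B. The different range of the meibomian arrays, and their high keratinocyte and skeletal muscle markers, cannot be told apart from the gland.

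The genes most like each member were taken by Pearson correlation of log2 values over the 18 arrays, which are not independent because they fall in groups of 3. Closest to Mdk were Abhd5, an activator of triglyceride breakdown (r = 0.939), the ephrin receptor Epha4 (r = 0.934), the ubiquitin ligase subunit Cul3 (r = 0.925), the MHC class I subunit gene B2m (r = 0.914), and the protease inhibitor Serpina1d (r = 0.906). Over the 15 arrays outside the lacrimal testosterone group these coefficients were 0.943, 0.920, 0.918, 0.874 and 0.887. Those 15 arrays still hold the submandibular testosterone pools, where Mdk was high too. The submandibular changes of these genes were 2.3, 2.76, 0.36, 1.0 and 2.73 in the same order. These coefficients therefore do not show a likeness to Mdk apart from the treatment. Epha4 averaged 16.5 ± 2.51 with testosterone and 0.852 ± 0.134 with placebo in the lacrimal gland, and 9.18 ± 1.32 with testosterone and 1.20 ± 0.0244 with placebo in the submandibular gland (SD, n = 3 each).

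Closest to Bmp6 were Pinx1, a telomerase inhibitor (r = 0.984), the DNA replication factor Cdc45 (r = 0.966), Bpifb2 (r = 0.965), the late cornified envelope gene Lce1l (r = 0.954) and the G protein regulator Rgs10 (r = 0.954). Outside lacrimal testosterone the coefficients for these were 0.821, 0.654, 0.612, 0.823 and 0.387. Closest to Fst were Rgs10 (r = 0.974), the fucosyltransferase Fut8 (r = 0.951), Pinx1 (r = 0.949), Faf1 (r = 0.948) and the mRNA cleavage factor Cstf2 (r = 0.942). Over the 15 other arrays they were 0.514, -0.01, 0.236, -0.296 and 0.169, so the likeness to Fst rests on the lacrimal testosterone pools. Bmp6 and Fst correlated at r = 0.936 over all 18 arrays and at 0.235 over those 15. Mdk correlated with Bmp6 at 0.511 over the 18 and -0.165 over the 15, and with Fst at 0.672 and 0.529.

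The pathway around these genes was read from 8 lists with 126 genes in all, of which 94 were on the array with 95 probes and 68 of those were tested. In the lacrimal gland 17 of the 68 passed in limma (7 higher and 10 lower), or 25%, against 28.1% of all tested probes (13.3% higher and 14.8% lower). Submandibular calls numbered 12 (9 higher and 3 lower), or 17.6%, against 13.8% of all (8.54% higher and 5.25% lower). In the meibomian gland 0 of 68 passed, with 6 at an unadjusted p below 0.05, against 0.59% of all. With the 6 meibomian arrays fitted alone 1 passed, the oocyte factor gene Gdf9 (0.58, adjusted p = 0.044, and 0.314 over all arrays). The median change of the 68 was -0.11, 0.00 and 0.08 in the lacrimal, meibomian and submandibular glands, against -0.07, 0.06 and 0.01 for all tested probes. The lacrimal and meibomian shares were below those of all probes and the submandibular share was slightly above, so the values below concern single genes. Chrd and Chrdl2, 2 of the 7 higher in the lacrimal gland, and Hs3st1, 1 of the 3 lower in the submandibular gland, passed the filter on dim probes only through the group where they were high, so they had to differ and their values are given with no test.

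**Figure D3:**
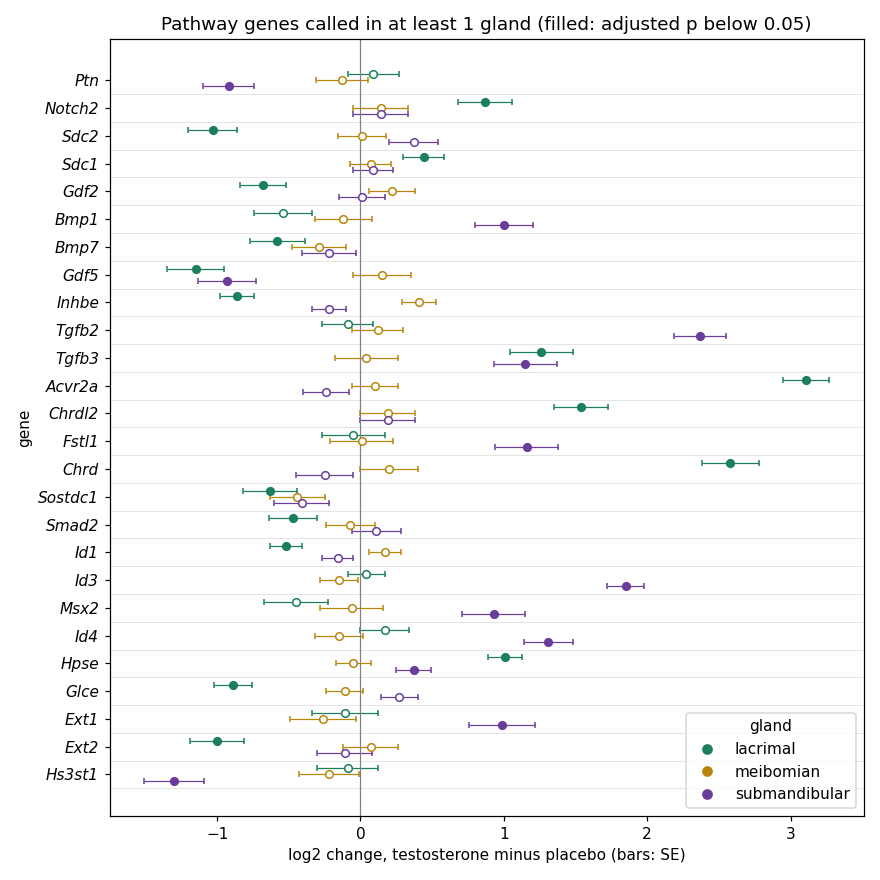
Log2 change, testosterone minus placebo, with its SE (bars) for the 26 pathway genes that passed in at least 1 gland. Filled points passed in limma at an adjusted p below 0.05, and Chrd, Chrdl2 and Hs3st1 are a description only. Acvr2a (3.11) and Chrd (2.58) have the largest lacrimal changes and Tgfb2 (2.37) and Id3 (1.85) the largest submandibular ones among these genes.

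Of 9 tested bone morphogenetic protein and growth differentiation factor probes 3 fell and 0 rose in the lacrimal gland, where 14.8% of all probes fell, and 4 of the 9 had an unadjusted p below 0.05 (median change -0.31, against -0.07 over all probes). Gdf5, a joint-forming ligand, fell to 3.94 ± 1.09 with testosterone, against 8.74 ± 0.950 with placebo (-1.15 ± 0.20, adjusted p = 0.000431), Gdf2 fell by 0.68 (adjusted p = 0.00388), and Bmp7, known from gland branching, fell by 0.58 (adjusted p = 0.0296). Bmp8a and Bmp8b, known from the germ line, did not pass (-0.19 and 0.11, adjusted p = 0.744 and 0.782). In the submandibular gland 1 of the 9 rose and 1 fell, against 8.54% and 5.25% of all probes. These were Bmp1, a protease that cleaves procollagen and chordin (1.0 ± 0.20, adjusted p = 0.00289), and Gdf5 (-0.93 ± 0.20, adjusted p = 0.00549). The lacrimal Bmp7 call and both submandibular calls were lost when the 6 arrays of the gland were fitted alone (adjusted p = 0.0723, 0.0784 and 0.0651). Bmp7 was also lost without lacrimal placebo pool A or C or testosterone pool B (adjusted p = 0.0642, 0.112 and 0.133).

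Among 7 activin, inhibin and TGF-beta ligand probes, 1 rose and 1 fell in the lacrimal gland, against 13.3% and 14.8% of all probes. In the submandibular gland 2 rose and 0 fell, against 8.54% and 5.25% of all, and 2 had an unadjusted p below 0.05. Tgfb3 rose in both glands, by 1.26 ± 0.22 (adjusted p = 0.000308) and 1.15 ± 0.22 (adjusted p = 0.00182). Tgfb2 read 11.3, 8.05 and 8.31 in submandibular testosterone pools, against 1.90, 1.88 and 1.18 in placebo pools (2.37 ± 0.18, adjusted p = 1.31e-07). Its submandibular testosterone pools all lay above its placebo pools, as for 16.5% of the tested probes in this gland. Its lacrimal groups overlapped, at 1.24 ± 0.0911 with testosterone and 1.35 ± 0.270 with placebo (SD, n = 3 each). Inhbe, an activin subunit known from liver, fell in the lacrimal gland to 14.6 ± 2.31 with testosterone, against 26.4 ± 2.63 with placebo (-0.86 ± 0.12, adjusted p = 5.79e-05). Inhba, whose product forms activin A, a protein that follistatin binds, did not pass (0.21 ± 0.15 in the lacrimal gland, adjusted p = 0.322).

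Of 11 receptor probes 2 had an unadjusted p below 0.05 in the lacrimal gland. There 13.3% of all probes rose and 14.8% fell, and of the 11 receptor probes 1 rose and 0 fell. This was Acvr2a, a type II receptor of activins and some bone morphogenetic proteins, which read 15.5, 13.2 and 10.4 in testosterone pools, against 1.08, 1.60 and 1.39 in placebo pools (3.11 ± 0.16, adjusted p = 2.60e-10). Submandibular Acvr2a averaged 1.12 ± 0.224 with testosterone and 1.33 ± 0.0876 with placebo, and in the meibomian gland 0.985 ± 0.0175 with testosterone and 0.905 ± 0.0297 with placebo (SD, n = 3 each). The lacrimal change of Acvr2a exceeded the submandibular one by 3.34 ± 0.23 (adjusted p = 1.99e-08, a difference that passed for 24% of all probes). Submandibular minus meibomian differences passed for 7.4% and lacrimal minus meibomian ones for 17.6% of all probes. The BMP type I receptor Bmpr1b (-0.01 ± 0.34, adjusted p = 0.989), the activin type I receptor Acvr1b (-0.49 ± 0.24, adjusted p = 0.145) and the TGF-beta receptor Tgfbr2 (0.19 ± 0.16, adjusted p = 0.427) did not pass in the lacrimal gland. Nor did Acvr1, a type I receptor through which Bmp6 signals, and the type II receptor Bmpr2, named after their values were seen (-0.92 ± 0.36 and -0.10 ± 0.37, adjusted p = 0.0705 and 0.882). In the submandibular gland, where 13.8% of all probes passed, 0 of the 11 passed in limma, with 2 at an unadjusted p below 0.05.

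Among 9 antagonist probes, which did not include Fst itself, 2 were called higher and 1 fell in the lacrimal gland. Over all probes 13.3% rose and 14.8% fell there. The 2 antagonists called higher are the genes given with no test. Chordin (Chrd), which binds bone morphogenetic proteins outside the cell, read 5.54, 4.62 and 3.88 with testosterone, against 0.427, 0.981 and 0.571 with placebo (2.58 ± 0.20). Its relative Chrdl2 read 1.73, 1.51 and 1.30 with testosterone, against 0.482, 0.348 and 0.383 with placebo (1.54 ± 0.19). Every lacrimal testosterone pool lay above every placebo pool for both genes, which was the case for 18.2% of the tested probes in this gland. Chrdl2 was above the 40th percentile of its array on those 3 arrays and on 0 others, and Chrd on those 3 and 1 other. Sostdc1, an antagonist of ectodermal organs, fell by 0.63 (adjusted p = 0.0197), a call lost without lacrimal placebo pool B or testosterone pool A or C (adjusted p = 0.112, 0.0748 and 0.0629) and with the lacrimal arrays fitted alone (0.0908). The antagonists noggin (Nog), at -0.15 ± 0.44, and Twsg1, at 0.11 ± 0.19, did not pass (adjusted p = 0.841 and 0.724). Of the 9 probes 1 rose in the submandibular gland, where 8.54% of all probes rose. It was the follistatin-like gene Fstl1 (1.16 ± 0.22, adjusted p = 0.00187), which averaged 3.14 ± 0.648 with testosterone and 1.33 ± 0.374 with placebo (SD, n = 3 each).

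**Figure D4:**
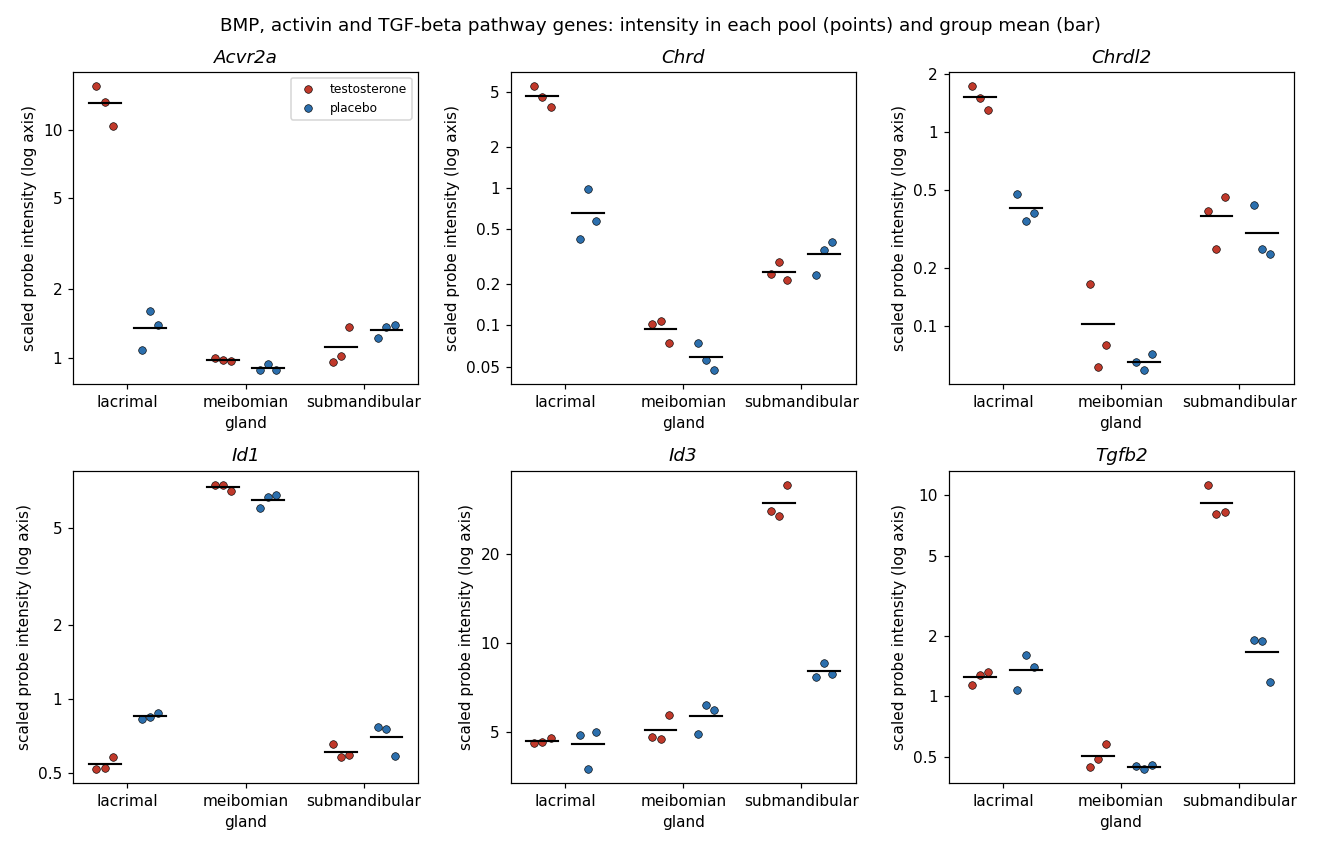
Scaled probe intensity (log axis) in each pool (points) with the group mean (bar) for 6 genes of the BMP, activin and TGF-beta pathway. Acvr2a, Chrd and Chrdl2 stand apart in lacrimal testosterone pools, Id3 (26.7 to 34.1) and Tgfb2 (8.05 to 11.3) in submandibular testosterone pools, and Id1 is lower in lacrimal testosterone pools (0.519 to 0.580) than in placebo ones (0.827 to 0.876).

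Of 4 Smad probes 1 fell in the lacrimal gland, where 14.8% of all probes fell. This was Smad2, by 0.47 (adjusted p = 0.0486), a call that was lost on leaving out any 1 of 13 arrays (highest adjusted p = 0.215) and in 3 other settings. In the submandibular gland, where 13.8% of all probes passed, 0 of the 4 Smad probes passed in limma (1 at an unadjusted p below 0.05). Of 5 tested target gene probes 1 fell in the lacrimal gland, Id1, an inhibitor of basic helix-loop-helix factors, which read 0.519, 0.522 and 0.580 with testosterone, against 0.827, 0.846 and 0.876 with placebo (-0.52 ± 0.11, adjusted p = 0.00209, and adjusted p = 0.0545 with the lacrimal arrays fitted alone). In the submandibular gland 8.54% of all probes rose and 5.25% fell. Of the same 5 target gene probes 3 rose there and 0 fell, with 3 at an unadjusted p below 0.05 (median change 0.93, against 0.01 over all probes). Id3 read 27.9, 26.7 and 34.1 with testosterone, against 7.67, 8.57 and 7.87 with placebo (1.85 ± 0.13, adjusted p = 6.47e-08). Id4 rose by 1.31 ± 0.17 (adjusted p = 4.35e-05) and the homeobox gene Msx2 by 0.93 ± 0.22 (adjusted p = 0.00927). Id3 did not pass in the lacrimal gland, at 4.67 ± 0.0934 with testosterone and 4.56 ± 0.688 with placebo (SD, n = 3 each).

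Around midkine, 10 probes of its family and receptors were tested. In the lacrimal gland, where 13.3% of all probes rose and 14.8% fell, 4 of the 10 had an unadjusted p below 0.05. In the lacrimal gland 2 rose and 1 fell: Notch2 by 0.87 ± 0.19 (adjusted p = 0.00249), the syndecan Sdc1 by 0.44 ± 0.14 (adjusted p = 0.0269) and the syndecan Sdc2, which fell by 1.03 (adjusted p = 0.000226). Submandibular Ptn, the other member of the midkine family, fell to 0.329 ± 0.0770 with testosterone, against 0.774 ± 0.130 with placebo (-0.92 ± 0.18, adjusted p = 0.00311), and was the only 1 of the 10 to pass there. In that gland 13.8% of all probes passed, and 6 of the 10 had an unadjusted p below 0.05. The Sdc1 call was lost without lacrimal placebo pools A or C or testosterone pools B or C (adjusted p = 0.0579, 0.122, 0.0975 and 0.0674) and with the lacrimal arrays fitted alone (0.0837). Nucleolin (Ncl), at -0.39 ± 0.16, and the integrin subunit gene Itgb1, at -0.15 ± 0.15, did not pass in the lacrimal gland (adjusted p = 0.0886 and 0.526). Heparan sulphate chains, which midkine binds, gave 1 rise and 2 falls of 13 probes in the lacrimal gland and 2 rises and 1 lower call in the submandibular gland. Over all probes 13.3% rose and 14.8% fell in the lacrimal gland, and 8.54% and 5.25% in the submandibular gland. Heparanase (Hpse), which cuts the chains, rose by 1.01 ± 0.12 in the lacrimal gland (adjusted p = 6.46e-06), and the chain-making enzymes Ext2 and Glce fell there by 1.0 and 0.89 (adjusted p = 0.000657 and 5.51e-05). Submandibular Ext1 rose by 0.99 ± 0.23 (adjusted p = 0.00761) and the sulphotransferase gene Hs3st1 read lower (-1.30 ± 0.21, no test), while the Hpse rise of 0.37 (adjusted p = 0.0467) was lost in 21 of 29 alternatives (highest adjusted p = 0.222) and the Ext1 rise with the submandibular arrays fitted alone (adjusted p = 0.0586).

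Genes known to answer to androgen were read beside these. Of 4 tested probes 2 rose and 1 fell in the lacrimal and 2 rose and 1 fell in the submandibular gland, where 28.1% and 13.8% of all probes passed. Fkbp5, a chaperone of steroid receptors, averaged 20.8 ± 3.87 with testosterone and 1.42 ± 0.173 with placebo in the lacrimal gland, and 6.12 ± 1.35 with testosterone and 0.951 ± 0.545 with placebo in the submandibular gland (SD, n = 3 each). Odc1, the polyamine enzyme, rose by 0.74 ± 0.17 in the lacrimal gland (adjusted p = 0.00331). The kinase Sgk1 fell by 0.87 in the lacrimal gland (adjusted p = 0.00249) and rose by 1.78 ± 0.19 in the submandibular gland (adjusted p = 7.45e-06), and the protease gene Tmprss2 fell there by 0.79 (adjusted p = 0.0136), a call lost without submandibular placebo pool C or testosterone pool A (adjusted p = 0.0501 and 0.0649) and with that gland fitted alone (0.0577). In the meibomian gland 0 of the 4 passed in limma, with 2 at an unadjusted p below 0.05, and 0.59% of all probes passed. The meibomian changes were 0.98 for Fkbp5, -0.45 for Sgk1, -0.05 for Odc1 and -0.07 for Tmprss2.

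Marker probes of several cell types also moved with treatment. In bulk RNA fewer cells of a type and less RNA per cell cannot be told apart. Over all probes 13.3% rose and 14.8% fell in the lacrimal gland, 8.54% and 5.25% in the submandibular gland and 0.469% and 0.121% in the meibomian gland, and lists with 1 call of a few probes are near those shares or too small to read. In the lacrimal gland 4 of 6 lacrimal marker probes fell and 0 rose (4 at an unadjusted p below 0.05), with a summed intensity of 936 to 1380 with testosterone and 1710 to 1760 with placebo, and 4 of 6 smooth muscle and myoepithelium probes fell, with sums of 11.1 to 13.1 with testosterone and 23.5 to 27.3 with placebo. Conversely, 5 of those 6 muscle probes rose in the submandibular gland, with sums of 138 to 158 with testosterone and 61.5 to 73.4 with placebo. In that gland 3 of 7 fibroblast probes rose (49.2 to 57.7 with testosterone, 39.7 to 48.6 with placebo), and 2 of 3 submandibular probes rose (810 to 899 with testosterone, 685 to 781 with placebo). The remaining submandibular probe, Klk1b5, read lower without passing, at 462 to 568 with testosterone and 647 to 743 with placebo. Of 4 adipocyte probes 2 fell in the lacrimal gland (7.13 to 10.8 with testosterone, 14.0 to 18.3 with placebo), 1 in the meibomian gland and 2 in the submandibular gland. Adipocyte sums were 43.9 to 57.2 with testosterone and 54.5 to 58.8 with placebo in the meibomian gland. In the submandibular gland they were 64.2 to 69.3 with testosterone and 74.5 to 172 with placebo, so its placebo pools were uneven. Endothelium probes passed 0 times of 6 in each gland in limma, with 3, 0 and 2 at an unadjusted p below 0.05 in the lacrimal, meibomian and submandibular glands. Of 4 leukocyte probes 1 rose in the lacrimal gland (43.4 to 58.8 with testosterone, 32.4 to 41.4 with placebo), of 4 keratinocyte probes 1 rose there, of 6 sebocyte probes 2 rose and 1 fell there and 1 fell in the submandibular gland, and 2 of 5 skeletal muscle probes and 1 of 2 nerve probes fell in the submandibular gland. No marker read 0 on all arrays of a gland. The part of these shifts in the values of Mdk, Bmp6, Fst and the pathway genes was not tested.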

How the data were processed

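Each of 18 arrays held RNA of pooled glands, 3 arrays per gland and treatment. The authors deposited 1 table of probe intensity on a linear scale, already scaled per array; how it was scaled, the array and the scanner are not given in the labels. The value -1, found on every array (37 to 118 probes), was taken as missing, and other negative values were set to 0. Values were changed to log2(value + 0.174), the offset being the 10th percentile of positive values. A probe was tested if it had 2 or more values in each group and exceeded its array's 40th percentile 3 or more times (7463 probes; missing values removed 146 and low signal 2891). Mdk and Fst were above that percentile on 18 and 15 arrays and Bmp6 on 7, so all 3 were tested. GEO's platform annotation gave 1 symbol for 8983 probes, several for 1 and none for 1516.

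One limma fit (version 3.58.1, R 4.3.3, eBayes with trend, 12 residual degrees of freedom) covered all arrays with a mean per group, and p-values were adjusted by Benjamini-Hochberg over these probes; an adjusted p below 0.05 passed. Changes are testosterone minus placebo on the log2 scale. The members and the 9 pathway and 11 marker lists were chosen with earlier results of these data known. Named pathway genes were those called in at least 1 gland and up to 3 uncalled ones per list by mean level; Acvr1 and Bmpr2 were added after their values were seen. Alternatives were other offsets, scalings, filters and variance models, -1 as 0, pool letter as a block, fits of fewer arrays and leaving out each array. Promoter sequences came from RefSeq, GRCm38.p6. Figures were drawn with matplotlib 3.10.9. The number of arrays limits the precision.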

Additional observations from a re-analysis of the deposited data

Results flagged for a closer look

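Bmp6 went opposite ways in 2 glands: its meibomian testosterone pools all lay below the placebo pools (-0.50), while its lacrimal ones all lay above. Of all tested probes 11.8% lay below in this way in the meibomian gland and 18.2% above in the lacrimal gland. The meibomian readings were dim (percentiles 36.2 to 49.1), and the change was -0.30 with the larger offset. The lacrimal rise is part of how the gene was chosen. The difference between the 2 glands was not tested.

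The testosterone change of several pathway genes differed between glands in limma (adjusted p below 0.05 for the difference of changes, in log2). Only genes already called in at least 1 gland are listed, so they were picked for a change before the difference was read. Over all probes such differences passed for 24% (lacrimal minus submandibular), 17.6% (lacrimal minus meibomian) and 7.4% (submandibular minus meibomian). The lacrimal change of Acvr2a exceeded the meibomian change by 3.0 and the submandibular one by 3.34. That of Chrd did so by 2.38 and 2.83 and that of Chrdl2 by 1.35 and 1.36, but both passed the filter on dim probes only through the lacrimal testosterone group, as did Hs3st1 only through the submandibular placebo group, so their differences are a description. Fstl1 went the other way, with a lacrimal minus submandibular difference of -1.21 and a submandibular minus meibomian difference of 1.15.

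Among ligands and the protease Bmp1, the lacrimal minus submandibular difference was -2.47 for Tgfb2, -1.53 for Bmp1, -0.69 for Gdf2, -0.64 for Inhbe and 1.01 for Ptn. Lacrimal minus meibomian, it was -1.30 for Gdf5, -0.90 for Gdf2, 1.21 for Tgfb3 and -1.27 for Inhbe. Submandibular minus meibomian, it was 2.25 for Tgfb2, 1.12 for Bmp1, 1.10 for Tgfb3, -1.09 for Gdf5 and -0.63 for Inhbe.

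Of the target genes, Id3, Id4 and Msx2 had lacrimal minus submandibular differences of -1.81, -1.13 and -1.38. Id3 and Id4 had submandibular minus meibomian differences of 2.0 and 1.46, and Id1 a lacrimal minus meibomian one of -0.69.

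For syndecan and heparan sulphate genes, lacrimal minus meibomian differences were -1.04 for Sdc2, 1.05 for Hpse, -1.07 for Ext2 and -0.78 for Glce. Lacrimal minus submandibular differences were -1.40 for Sdc2, 0.63 for Hpse, -0.89 for Ext2, -1.16 for Glce, 1.21 for Hs3st1 and -1.10 for Ext1. Submandibular minus meibomian differences were -1.08 for Hs3st1 and 1.25 for Ext1.

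Androgen response genes differed too. Fkbp5 had a lacrimal minus meibomian difference of 2.72 and a submandibular minus meibomian one of 1.64. Sgk1 had a lacrimal minus submandibular difference of -2.65 and a submandibular minus meibomian one of 2.23, and Odc1 a lacrimal minus meibomian one of 0.79. Differences against the meibomian gland include that of its array range and of its keratinocyte and skeletal muscle markers.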

How the results depend on the processing

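Of 243 recomputed changes of Mdk, Bmp6 and Fst, 237 moved by less than the spread between pools. Many of these could not move. Other filters, -1 as 0, pool letter as a block and leaving out an array of another gland do not alter these differences of group means. The count is therefore no sign of stability. The lacrimal Bmp6 change was 3.7 with the smaller offset or with quantile normalization over all arrays and 2.37 with the larger offset. The meibomian Bmp6 change was -0.30 with the larger offset, and the lacrimal Fst change 3.53 and 2.46 with the smaller and larger offset. Without 1 array at a time the lacrimal changes ran from 4.38 to 5.34 for Mdk, 3.15 to 3.37 for Bmp6 and 3.03 to 3.42 for Fst, and the submandibular Mdk change from 3.35 to 3.91. The lacrimal minus meibomian Fst difference between placebo groups was -0.82 with quantile normalization, and without 1 array it ran from -0.64 to -0.25, and the lacrimal minus submandibular one from -0.53 to -0.15.

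Meibomian calls over all probes (44) became 77 with the larger offset, 28 with quantile normalization (18 higher and 10 lower, against 35 and 9), 246 with its 6 arrays fitted alone, and 0 to 170 without 1 array: for the meibomian placebo pools A, B and C it was 0, 2 and 4, for the testosterone pools A, B and C it was 3, 0 and 170, and leaving out submandibular placebo pool A gave 85. The cause was not tested. Submandibular calls (1029) became 409 with that gland fitted alone, which also has fewer arrays. Meibomian pathway calls became 1 with that gland alone. Of 35 called changes of pathway and androgen response genes, 25 passed in every alternative in which they were tested and 10 lost their call in at least 1. The 25 include Chrd, Chrdl2 and Hs3st1, which passed the filter on dim probes only through their high group. For those genes a kept call is no sign of stability. Chrdl2, among the 25, left the tested probes without any 1 lacrimal testosterone array. Deviations of same-letter pools of a gland correlated at -0.11 to 0.14 over 9 pairs, so the letters were not taken as pairs. A replicate block within each gland gave 0 meibomian calls over all probes.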
